A study of Mus musculus with 696 samples.

Results

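Cytosolic ribosomal protein genes were examined in the progeny of Lrig1 stem cells of mouse tail skin, before and after 2 consecutive wounds. The members were chosen by symbol, as genes of the count table named Rpl (large subunit) or Rps (small subunit) with a number. After the number at most a letter and a digit were allowed, and Rplp0, Rplp1, Rplp2 and Rpsa were added. Ribosomal S6 kinases, genes named as pseudogenes and longer symbols such as Rps27rt were left out. This gave 81 of the 15652 genes, 49 of the large and 32 of the small subunit, and the rule itself uses no measured value. All cells came from adult female mice of a mixed CBA C57BL/6 background that carried Lrig1-EGFP-ires-CreERT2 and Rosa26-fl/STOP/fl-tdTomato and had received hydroxytamoxifen once on the tail before wounding, so the unwounded animals carried the same alleles and had the same treatment. The Lrig1 promoter drives the Cre, and tdTomato stays on in the descendants of cells that expressed Lrig1, which are called Lrig1 GL (genetically labelled) cells here. The 4 groups were unwounded skin (0w, 179 cells), 1 week after a first full-thickness wound (1w pw1, 168 cells), 8 weeks after it (8w pw1, 172 cells) and 1 week after a second wound on the healed site (1w pw2, 177 cells). Sorted tdTomato+ cells of a zone with wound bed and distant hair follicles were read one by one with Smart-seq2 on 2 plates per group. The methods of the study describe independent experiments with several biological replicates each, but neither they nor the labels say which animals or experiment a plate held, so p-values measure the spread between plates, which may be technical. Each time point also has a replicate letter of its own, so that letter and time point cannot be told apart. Animals of 8w pw1 and 1w pw2 were also older, and longer past labelling, than those of 0w. No unwounded group of their age is among the 4, so wounding, age and time since labelling cannot be told apart in these comparisons.

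The cytosolic ribosome translates all nuclear-encoded messenger RNAs, and each of its core proteins is present once in most ribosomes, the stalk proteins Rplp1 and Rplp2 excepted. Most messenger RNAs of ribosomal proteins start with a run of pyrimidines, the terminal oligopyrimidine tract, through which Larp1 and the mTORC1 kinase adjust their translation, and their level therefore need not follow protein synthesis. Some ribosomal proteins act outside the ribosome: free Rpl5 and Rpl11 bind MDM2, the ubiquitin ligase of p53, when ribosome assembly is disturbed.

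The pyrimidine runs could be looked up for 61 of the 81 members, which have a promoter sequence in RefSeq (GRCm38.p6). A run of at least 8 C or T bases that starts with C lay on the strand of the gene within the 100 bases around an annotated start in 51 of 61 members (83.6%), against 32.0% of 27025 annotated genes and 32.5% of the 12162 genes of the count table with a promoter sequence. The sequences below are shown because these genes carry the main values of the following paragraphs: Rpl5 has the most counts, Rpl39 the highest level per length, Rps6 is the substrate of S6 kinase, Rpl11 is the partner of Rpl5, Rpl22l1 is the paralogue of Rpl22, and Rplp0 is the stalk base. Each line gives 30 bases of the strand of the gene, 5′ to 3′, with the longest run of C and T that starts with C in capitals, so that T bases just before its first C are not counted.
Rpl5, chr5:107900497-107900526, plus strand: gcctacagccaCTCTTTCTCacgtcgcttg
Rpl39, chrX:37085173-37085202, minus strand: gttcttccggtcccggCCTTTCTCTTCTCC
Rps6, chr4:86857349-86857378, minus strand: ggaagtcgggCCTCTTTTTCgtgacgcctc
Rpl11, chr4:136053357-136053386, minus strand: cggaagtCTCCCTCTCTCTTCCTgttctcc
Rpl22l1, chr3:28805500-28805529, plus strand: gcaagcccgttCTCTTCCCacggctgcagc
Rplp0, chr5:115559467-115559496, plus strand: ggaccgcctggttCTCCTataaaaggcaca
The run was 9 bases long in Rpl5, 10 in Rps6, 16 in Rpl11 and 8 in Rpl22l1, and the longest such run of Rplp0 had 5 bases. In Rpl39 the run was at least 14 bases long, since it reaches the last base searched. The window of Rpl5 ends 2 bases before the transcript start of RefSeq and holds the start that GENCODE gives the gene, and that of Rpl39 begins 20 bases after it. The letters CCGGAAG, the core of ETS-type sites, stood on either strand of the 300 bases around the start in 42.6% of the 61 members, 9.93% of the annotated genes and 17.0% of the genes of the table, among the printed genes in Rpl39, Rps6 and Rpl11. The corresponding shares were 16.4%, 7.28% and 7.75% for AAGATGG, the core of YY1-type sites, and 11.5%, 15.7% and 11.2% for TATAAA. The ETS-type and the YY1-type letters can overlap each other, and the former, read on the other strand, can overlap a pyrimidine run. These matches are descriptions of the sequence, and no match says only that the letters are not in the window.

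Ribosomal protein transcripts were found in all cells. A cell had counts for a median of 79.0 of the 81 members, and the poorest cell for 37. A member was detected in a median of 99.1% of the 696 cells, and 77 members were detected in over 90%. The exceptions were Rpl39l, a paralogue of Rpl39 known from testis, with counts in 0.575% of cells, Rpl7l1 in 54.7%, Rpl10 in 86.1% and Rps27 in 89.5%. Rpl39l was the only member that did not pass the filter on low counts, which leaves 80 members among the 13853 genes tested. Plates held 12293182 to 19760820 estimated counts from 79 to 91 cells. Krt14, a keratin of basal keratinocytes, was detected in 89.1% of cells and Krt5 in 58.9%, the pan-leukocyte gene Ptprc in 3.88% and the fibroblast collagen gene Col1a1 in 1.58%. The summed level of 8 markers of differentiated epidermis was 3216 and 3385 CPM (counts scaled to the library) on the plates of 0w, 34923 and 37030 in 1w pw1, 6700 and 5119 in 8w pw1, then 18682 and 27564 in 1w pw2, and that of 8 wound activated markers was 1173 and 411, 25141 and 11083, 2046 and 1225, and 6616 and 6631 CPM. Other lists differed between plates of one time point: the 4 interscale and scale markers had 1449 and 12616 CPM and the 7 upper follicle duct markers 36170 and 15047 at 1w pw2, and the 8 sebaceous gland markers 1084 and 7901 at 0w. Krt17 is on both the duct list and the wound activated list, so these sums are not separate. The 10 bulge markers had 2978 and 1497 CPM in 0w, 517 and 389 in 1w pw1, 1848 and 1228 in 8w pw1, then 1058 and 1287 in 1w pw2. The bulge list includes Postn, which the study uses as a marker of the infundibulum, so its sum is not of the bulge alone. The part of these cell types in the results was not tested. The endothelial gene Pecam1 had counts in 98.7% of cells, at 94.5 to 1812 CPM. A plate sum does not tell a change in the kinds of cells caught from a change in RNA per cell.

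The 81 genes together held 7.29% and 6.08% of all counts on the 2 plates of 0w, and 9.27% and 7.25% at 1w pw1. At 8w pw1 the plates held 5.77% and 5.79%, and at 1w pw2 they held 8.49% and 5.36%. Both plates of 8w pw1 lay below both plates of 0w and both of 1w pw1, whereas the plates of 0w, 1w pw1 and 1w pw2 overlapped. This holds for plate sums only: the median cell had 6.94% and 5.75% in 0w, 8.77% and 6.63% in 1w pw1, 6.08% and 6.07% in 8w pw1, then 8.02% and 5.12% in 1w pw2, so that the plates of 0w and 8w pw1 overlapped. As means over plates the shares were 6.68% ± 0.858 (SD, n = 2), 8.26% ± 1.43, 5.78% ± 0.0124 and 6.92% ± 2.21 in the same order. The single cells spread much more widely than the plates, from 0.232% to 37.1% with a median of 6.54%. A single cell carried 12.9% of the ribosomal protein counts of 0w replicate 2, 11.3% of those of 8w pw1 replicate 2 and 13.4% of those of 1w pw2 replicate 2, and the other plates had 8.23% or less. The mitochondrially encoded genes, which are part of the total, took 24.6% and 29.7% in 0w, 22.9% and 25.2% in 1w pw1, 23.1% and 25.3% in 8w pw1, then 18.4% and 18.7% in 1w pw2. Without them the means were 9.16%, 10.8%, 7.63% and 8.50%.

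**Figure D1:**
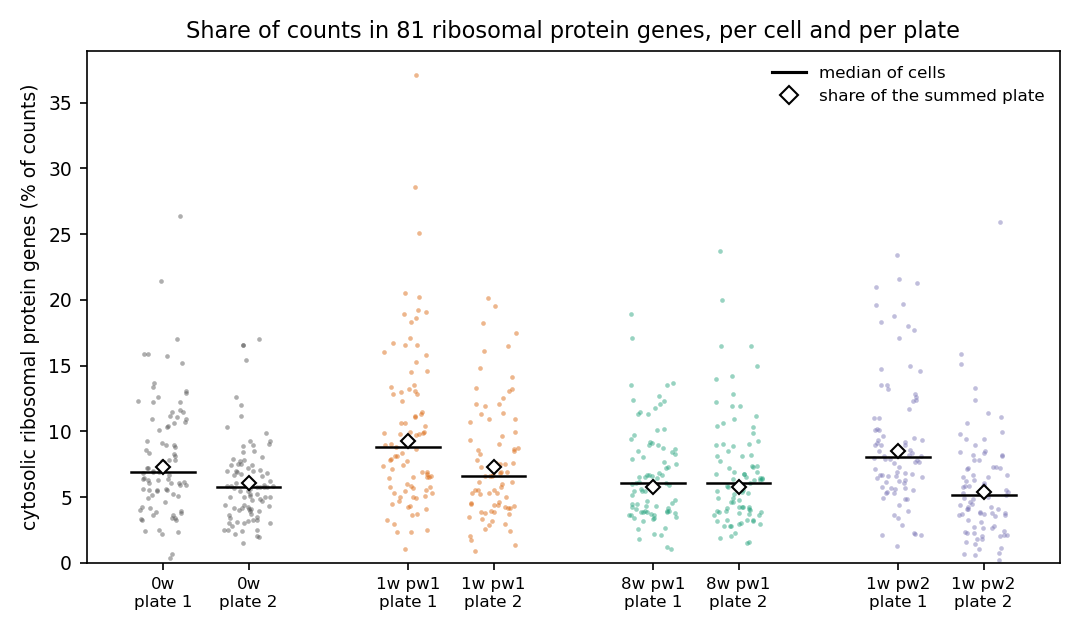
Percent of counts in the 81 ribosomal protein genes (vertical axis) in each cell (dots), with the median of the cells (line) and the share of the summed plate (diamond), for 2 plates at each of the 4 time points. Cells of every plate spread from near 1% to above 15%, and the plate shares lie between 5.36% and 9.27%.

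Large subunit transcripts outweighed small subunit transcripts on every plate. The ratio of large to small subunit counts was 1.70 and 1.67 in 0w, 1.85 and 1.78 in 1w pw1, 1.78 and 1.74 in 8w pw1, then 1.58 and 1.72 in 1w pw2. Rpl5 alone held 0.767% and 0.791% of all counts in 0w, 1.44% and 1.33% in 1w pw1, 0.588% and 0.696% in 8w pw1, then 0.511% and 0.614% in 1w pw2. Its share was highest on both plates of 1w pw1. Without Rpl5 the ratio was 1.41 and 1.32 in 0w, 1.40 and 1.27 in 1w pw1, 1.5 and 1.41 in 8w pw1, then 1.43 and 1.41 in 1w pw2, and the plates of 1w pw1 no longer had the highest ratios.

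The members were far from equal in level. Per kb of exonic length, the mean over the 8 plates ranged from 9.46 CPM per kb for Rpl7l1 to 2306 for Rpl39, a ratio of 244, with a median of 326 and quartiles of 162 and 598. The highest were Rpl39, a short protein that lines the peptide exit tunnel, then Rpl5 with 2259, the small subunit gene Rps3a1 with 1985, then Rpl23 with 1824 and the stalk gene Rplp1 with 1562 CPM per kb. The lowest after Rpl7l1 were Rpl22 with 55.5, Rpl18 with 63.7, Rpl7a with 84.6 and Rpl34 with 96.5. The plate values of Rpl39 ran from 1032 to 4325 and those of Rpl5 from 1181 to 4557, so these neighbours in the order do not differ beyond the spread of the plates. The 10 genes with the most counts held 41.9% of the summed level of the members. The order depends on the length used: per kb of the longest coding transcript the median was 684 and the range 426-fold, the orders had a Spearman correlation of 0.85 over 80 genes, and 3 of the 5 highest and 4 of the 5 lowest were shared. Reads of near-identical copies can be divided between them: Rpl10-ps3, which is identical to Rpl10 over 740 aligned bases, held 110% of the counts of Rpl10, Gm2000 held 83.5% of those of Rpl35, Rps27rt 36.5% of those of Rps27, and Rpl9-ps6 30.8% of those of Rpl9. The values of these 4 members are uncertain, and 5 more members share a stretch of at least 200 bases at 97% identity with a gene that held at most 3.13% of their counts.

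**Figure D2:**
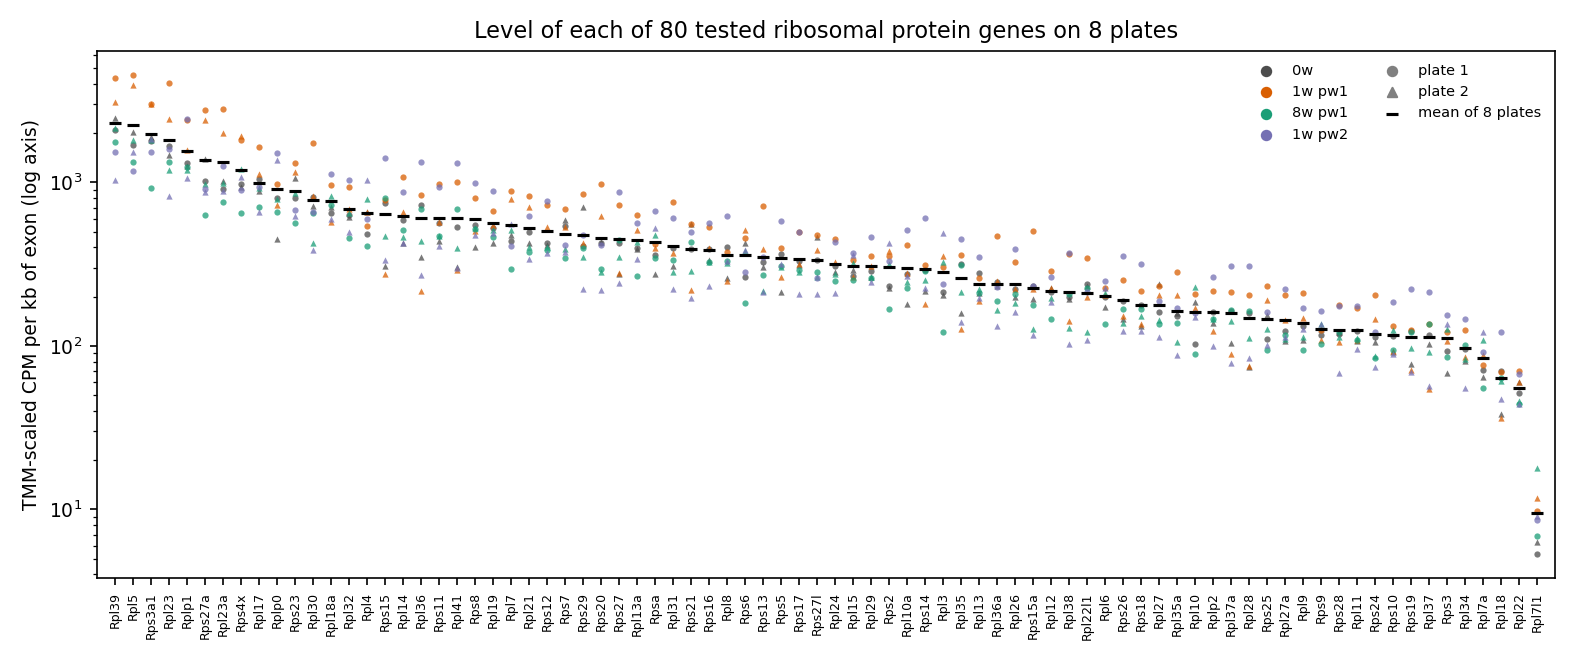
Level of each of the 80 tested ribosomal protein genes (TMM-scaled CPM per kb of exon, log axis), ordered by the mean of the 8 plates (bars), with circles for plate 1 and triangles for plate 2 of each time point. The means fall from 2306 for Rpl39 to 9.46 for Rpl7l1, and the plates of a gene usually lie within a few-fold of each other.

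The comparison of 1w pw1 with 0w asks what differs during the first healing. Of the ribosomal protein genes, 71 of 80 had a positive log2 change. Their median change was 0.38, with quartiles of 0.18 and 0.65, against -0.04 over all genes tested. With plain library totals in place of TMM scaling the median of the members was 0.00 while that of all genes was -0.40, so its own direction was not kept. The median was 0.16 against -0.06 with a stricter filter on cells (2000 genes or more, mitochondrial counts of 20% or less, 313 cells kept, of which 9 on 0w replicate 2 and 31 to 58 on each other plate), 0.10 against -0.13 without 1w pw1 replicate 1, and -0.07 against -0.13 once trends with length and GC content were removed. Both plates of 1w pw1 lay above both plates of 0w for 41 members and below them for none, where 23.0% and 22.1% of all genes did so in either direction. Large and small subunit genes had the same median of 0.38. The 50 tested members with a pyrimidine run had a median of 0.29 against 0.61 in the 10 without one, and the order was the other way for 1w pw2 against 0w (0.29 and 0.08), against 8w pw1 (0.33 and 0.25) and against 1w pw1 (-0.06 and -0.28). For 8w pw1 against 0w those with a run were again lower (-0.09 and -0.04). A run counted here can lie before the start of the transcript. The grouping therefore does not tell which transcripts begin with a pyrimidine tract.

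Rpl5 (chr5:107900502-107909005, plus strand, GRCm38), a large subunit protein that carries a small ribosomal RNA into the ribosome, had 6619 and 7951 CPM at 0w and 17865 and 15432 CPM at 1w pw1. All plates of 1w pw1 were above all of 0w, and the log2 change was 1.19 ± 0.40 (SE), a 2.29-fold higher level (edgeR quasi-likelihood p = 0.0144, adjusted p = 0.256). Rpl23a, which lies at the exit of the peptide tunnel, had 776 and 866 CPM at 0w and 2369 and 1687 CPM at 1w pw1, with the largest change of any member at 1.30 ± 0.43 (edgeR p = 0.0128, adjusted p = 0.243). Rps27a, made as a fusion of ubiquitin and a small subunit protein, had 2010 and 2727 CPM at 0w and 5482 and 4738 CPM at 1w pw1, a change of 1.11 ± 0.42 (edgeR adjusted p = 0.329). Rpl23 was the fourth gene with a change above 1, with 2950 and 2596 against 7215 and 4317 CPM and a change of 1.06 ± 0.47 (edgeR adjusted p = 0.431). For these 4 genes the groups did not overlap, and each of them was lower again on both plates of 8w pw1. The lowest changes among the members were those of Rps21 at -0.29 ± 0.60, Rpl37 at -0.21 ± 0.66 and Rpl13 at -0.12 ± 0.45, each smaller than its standard error, and all 3 turned positive when 1w pw1 replicate 2 was left out.

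Single genes did not pass the test in this comparison. With edgeR 0 of 80 members were called at an adjusted p below 0.05, where 0.527% of all genes were, and DESeq2 called 0 members and 5.32% of all genes. At an unadjusted p below 0.05 there were 4 members (5.0%) with edgeR, the genes named above, and 3 with DESeq2, where edgeR gave 11.5% of all genes, so the share of members was below the background. The median standard error of a member was 0.48.

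**Figure D3:**
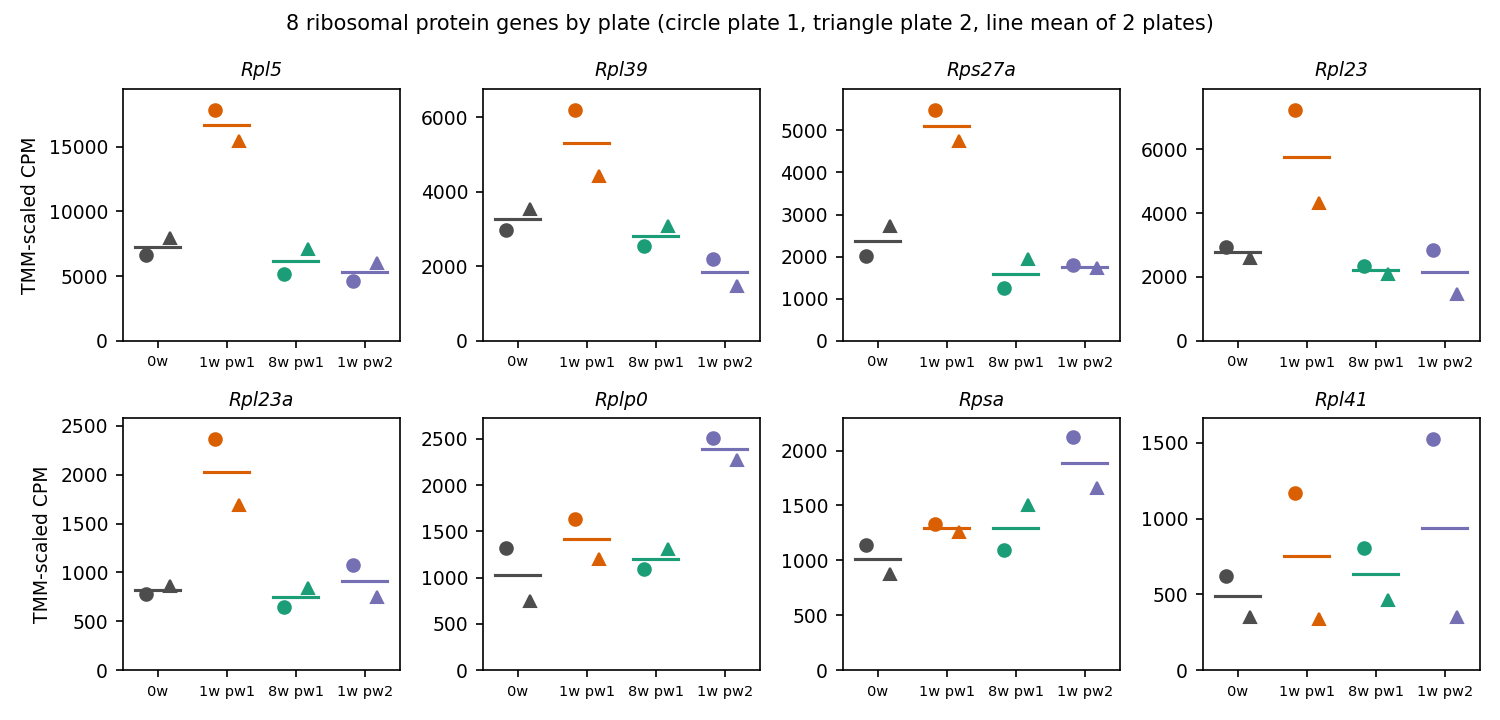
TMM-scaled CPM (vertical axis, from 0) of 8 ribosomal protein genes on the 2 plates of each time point, with a circle for plate 1, a triangle for plate 2 and a line for their mean. Rpl5, Rps27a, Rpl23 and Rpl23a are highest on both plates of 1w pw1, Rplp0 and Rpsa on both plates of 1w pw2, and the plates of Rpl41 overlap at every time point.

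The comparison of 8w pw1 with 0w sets healed skin against unwounded skin of younger animals. Of the members, 29 of 80 were higher, with a median log2 change of -0.09 and quartiles of -0.27 and 0.08, against 0.07 over all genes. With every cell scaled to the same total the median was 0.12 against 0.07, with the stricter filter on cells -0.35 against 0.13 and with the length and GC trends removed -0.22 against 0.02. Without 8w pw1 replicate 1 it was -0.08 against -0.11. The plates of 8w pw1 were both above those of 0w for 2 members and both below for 22 (27.5%), where 17.8% and 15.6% of all genes were. Rps7, a small subunit gene mutated in some patients with Diamond-Blackfan anaemia, had 1088 and 1179 CPM at 0w and 696 and 785 CPM at 8w pw1, with a change of -0.61 ± 0.40. It was followed by Rps29 at -0.58 ± 0.54 and Rps27a at -0.57 ± 0.42. The highest changes were 1.09 ± 0.56 for Rpl7l1, which rests on 62.7 CPM on 8w pw1 replicate 2 against 23.9 on the other plate, 0.39 ± 0.43 for Rps3 and 0.38 ± 0.76 for Rpl41, whose sign turned without 0w replicate 2 or without 8w pw1 replicate 1. With edgeR 0 members were called, as were 0% of all genes, and DESeq2 called 0 members and 1.24% of all genes. At an unadjusted p below 0.05 there were 0 members with edgeR and 0 with DESeq2, where edgeR gave 6.47% of all genes, and the lowest adjusted p of a member was 0.789 (edgeR).

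The comparison of 1w pw2 with 0w sets the second healing against unwounded skin. The median change was 0.28 against 0.05 over all genes and 58 of 80 members were higher, but this rested on 1 plate: without 1w pw2 replicate 1 the median was -0.36, and without 1w pw2 replicate 2 it was 0.57. It was also negative, at -0.18, with the stricter filter on cells, and -0.12 with the length and GC trends removed. Both plates of 1w pw2 lay above both of 0w for 10 members and below for 10 (12.5% each), where 21.5% and 19.4% of all genes did.

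Rplp0 (chr5:115559467-115563727, plus strand), the base of the stalk that recruits elongation factors, had 1322 and 745 CPM in 0w, 1630 and 1203 in 1w pw1, 1099 and 1308 in 8w pw1, then 2506 and 2272 in 1w pw2. Both plates of 1w pw2 stood above all 6 other plates, and the change from 0w was 1.21 ± 0.45 (edgeR p = 0.0216, adjusted p = 0.306). Rpsa, a small subunit protein also described as a laminin receptor, had 1141 and 877 CPM at 0w and 2123 and 1658 CPM at 1w pw2, a change of 0.91 ± 0.42 (edgeR adjusted p = 0.409), again with both plates above the other 6. Rpl41, which codes for the shortest ribosomal protein, had a change of 0.95 ± 0.76, with 1525 and 350 CPM at 1w pw2 against 621 and 353 CPM at 0w, and its sign turned without 1w pw2 replicate 1. At the other end stood Rpl39 at -0.82 ± 0.42, with 2979 and 3546 CPM at 0w and 2207 and 1480 CPM at 1w pw2, then Rps27l at -0.77 ± 0.42 and Rps29 at -0.67 ± 0.54. With edgeR 0 members and 0.267% of all genes were called, and DESeq2 called 0 members and 5.17% of all genes. At an unadjusted p below 0.05 there was 1 member (Rplp0) with edgeR and 1 with DESeq2, where edgeR gave 12.6% of all genes.

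The comparison of 1w pw2 with 8w pw1 follows the second wound from its own starting point. The median change was 0.33 against 0.01 over all genes, and 68 of 80 members were higher. Without 1w pw2 replicate 1 the median was -0.20, and without 1w pw2 replicate 2 it was 0.72. It was 0.12 with every cell scaled to the same total, 0.11 with the length and GC trends removed and 0.05 with a replicate block as well. The plates did not overlap for 11 members that were higher (13.8%) and 2 that were lower, where 16.8% and 16.3% of all genes were. Rplp0 had the largest change, 0.99 ± 0.44 (edgeR p = 0.0495, adjusted p = 0.625). Rpl10a followed at 0.72 ± 0.48 and Rpl3, a protein at the peptidyl transferase centre, at 0.69 ± 0.55. The lowest were Rpl39 at -0.61 ± 0.42, Rpl7l1 at -0.48 ± 0.56, whose sign turned without 8w pw1 replicate 2 and with every cell scaled to the same total, and Rps27l at -0.22 ± 0.42. With edgeR 0 members and 0.00722% of all genes were called, and DESeq2 called 0 members and 2.11% of all genes. At an unadjusted p below 0.05 there was 1 member (Rplp0) with edgeR and 0 with DESeq2, where edgeR gave 7.94% of all genes.

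The comparison of 1w pw2 with 1w pw1 sets the second healing beside the first at the same time after wounding. The members split: 34 were higher and 46 lower at 1w pw2, with a median of -0.16 and quartiles of -0.70 and 0.28, against 0.09 over all genes. The median was -0.77 without 1w pw2 replicate 1, 0.29 without 1w pw2 replicate 2 and 0.15 without 1w pw1 replicate 1, and with library totals it was 0.22 where that of all genes was 0.43. With the stricter filter on cells it was -0.30 against 0.14. For 24 members both plates of 1w pw2 lay below both of 1w pw1 and for 6 above, where 17.4% and 19.9% of all genes did so. A change below -1 was found for 8 of 80 members and a change above 1 for none, where 11.8% and 18.7% of all genes had one.

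Rpl5 had 4628 and 6052 CPM at 1w pw2 against 17865 and 15432 CPM at 1w pw1. The groups were far apart on both plates, and the change was -1.64 ± 0.41 (edgeR p = 0.00244, adjusted p = 0.781, and DESeq2 adjusted p = 0.0981). Rps27a had 1808 and 1722 CPM at 1w pw2 and a change of -1.53 ± 0.43 (edgeR p = 0.00486, adjusted p = 0.781). Rpl39 had 2207 and 1480 CPM at 1w pw2 against 6202 and 4423 CPM at 1w pw1, a change of -1.53 ± 0.43 (edgeR p = 0.00516, adjusted p = 0.781). The other members with an unadjusted edgeR p below 0.05 were Rpl23 at -1.42, Rps20 at -1.33, Rpl30 at -1.31 and Rpl23a at -1.15, all lower at 1w pw2. The comparison of 1w pw1 with 0w uses the same plates of 1w pw1. The highest changes were 0.75 ± 0.44 for Rplp0, 0.75 ± 0.54 for Rps14 and 0.72 ± 0.76 for Rps15, and the last 2 turned negative without 1w pw2 replicate 1. With edgeR 0 members and 0% of all genes were called, and DESeq2 called 0 members and 0.314% of all genes. At an unadjusted p below 0.05 there were 7 members (8.75%) with edgeR and 7 with DESeq2, where edgeR gave 6.01% of all genes.

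The healings were also set against each other, as 1w pw2 over 8w pw1 less 1w pw1 over 0w on the log2 scale. For the members this difference had a median of -0.03 against 0.05 over all genes, and 35 of 80 were positive. The median was 0.36 with library totals, where that of all genes was 0.41, and it was -0.30 with every cell scaled to the same total and 0.15 with the length and GC trends removed. It was -0.61 when 1w pw2 replicate 1 was left out and 0.40 when replicate 2 was. Rpl5 stood lowest at -1.39 ± 0.57 (edgeR p = 0.0335, adjusted p = 0.922), followed by Rpl7l1 at -1.36 ± 0.79 and Rpl39 at -1.31 ± 0.60. The highest values were 0.66 ± 0.76 for Rps14, 0.63 ± 0.68 for Rpl8 and 0.55 ± 1.13 for Rpl36, all within their standard errors, and those of Rps14 and Rpl36 turned negative without 1w pw2 replicate 1. With edgeR 0 members and 0% of all genes were called, and DESeq2 called 0 members and 0.556% of all genes. At an unadjusted p below 0.05 there was 1 member (Rpl5) with edgeR and 1 with DESeq2, where edgeR gave 5.34% of all genes.

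Grouped by role, the stalk genes stood together only in part. Rplp1, which recruits elongation factors with Rplp2, had 652 and 632 CPM in 0w, 1204 and 785 in 1w pw1, 622 and 591 in 8w pw1, then 1220 and 531 in 1w pw2. Rplp2 had 335 and 287 CPM in 0w, 448 and 254 in 1w pw1, 300 and 301 in 8w pw1, then 544 and 207 in 1w pw2. Unlike Rplp0, both were split between the plates of 1w pw2, and their changes from 0w to 1w pw2 were 0.45 ± 0.49 and 0.27 ± 0.53.

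The pair that binds MDM2 was likewise uneven. Rpl11 had 331 and 288 CPM in 0w, 462 and 295 in 1w pw1, 293 and 300 in 8w pw1, then 472 and 258 in 1w pw2. Its changes from 0w were 0.29 ± 0.46, -0.06 ± 0.46 and 0.24 ± 0.46 at the 3 later time points, where those of Rpl5 were 1.19, -0.25 and -0.45. Among the 17 members listed for Diamond-Blackfan anaemia, an inherited anaemia from loss of a copy of a ribosomal protein gene, 0 were called by edgeR in any of the 6 comparisons, and Rpl5 was the only one with an unadjusted p below 0.05. Rps19, the gene most often affected in that disease, had 583 and 364 CPM in 0w, 586 and 332 in 1w pw1, 566 and 457 in 8w pw1, then 1051 and 326 in 1w pw2. Rps6, the substrate of S6 kinase, had 416 and 677 CPM in 0w, 720 and 809 in 1w pw1, 289 and 599 in 8w pw1, then 450 and 611 in 1w pw2, and no change of it from 0w exceeded its standard error. Rps18 and Rpl13a, which are often used as reference genes, had changes from 0w between -0.17 and 0.54, and their values on single plates ran from 305 to 772 CPM for Rps18 and from 564 to 1345 CPM for Rpl13a.

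Paralogues were compared with the genes they descend from. Of 7 listed paralogues the table held 4, among them Rpl39l, which was not tested. Rpl22l1 had 478 and 461 CPM in 0w, 682 and 395 in 1w pw1, 447 and 241 in 8w pw1, then 428 and 217 in 1w pw2, a level per kb of 211 against 55.5 for Rpl22. Rps27l, a gene known as a target of p53, had 272 and 378 CPM in 0w, 392 and 315 in 1w pw1, 230 and 216 in 8w pw1, then 212 and 170 in 1w pw2. Both plates of 1w pw2 were the lowest of all 8 for Rps27l, and the groups 0w and 1w pw2 did not overlap. The changes of Rps27, its parent gene, were 0.53 ± 0.66, 0.18 ± 0.66 and 0.68 ± 0.66 from 0w at the 3 later time points. Rpl7l1 stayed at 18.7 to 62.7 CPM, where its parent Rpl7 had 798 to 2370 CPM, and the parent genes Rpl3, Rpl10 and Rps4x had no called change with edgeR.

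Genes outside the family that serve the ribosome were taken from lists. With edgeR 0 genes of any list were called in the 6 comparisons. Of 21 other transcripts with a pyrimidine tract that were tested, the median change was 0.27 for 1w pw1, -0.04 for 8w pw1 and -0.02 for 1w pw2, each against 0w, and 1, 0 and 2 of them were higher at an unadjusted p below 0.05. Fau, whose product holds a ribosomal protein fused to a ubiquitin-like protein, had an estimate of 1.04 ± 0.72 for 1w pw2 against 0w, and Rack1, a protein bound to the small subunit, had 0.80 ± 0.47. Among 40 genes of ribosome biogenesis the median was -0.15, -0.13 and -0.06 in the same 3 comparisons, with 1, 0 and 3 higher and 0, 2 and 0 lower at an unadjusted p below 0.05, and among 22 genes of mTORC1 and S6 kinase signalling -0.27, -0.08 and -0.00. Larp1, the binder of pyrimidine tracts, had estimates of -0.30 ± 0.56, -0.25 ± 0.56 and -0.65 ± 0.56. Myc, which drives ribosome biogenesis genes in many cells, had 15.4 and 12.5 CPM in 0w, 6.73 and 6.68 in 1w pw1, 15.8 and 12.3 in 8w pw1, then 24.7 and 15.9 in 1w pw2. Its 2 plates of 1w pw1 were the lowest, and the log2 estimate of Myc for 1w pw2 over 1w pw1 was 1.60 ± 0.58 (edgeR p = 0.0207, adjusted p = 0.781). In the MYC network list the median of 10 genes was 0.14, -0.33 and 0.24. The 78 mitochondrial ribosomal protein genes had medians of 0.22, 0.04 and 0.02 against 0w, where the cytosolic family had 0.38, -0.09 and 0.28, and the 80 tested nuclear genes of oxidative phosphorylation had 0.09, -0.06 and 0.01. DESeq2 called 6 pairs of gene and comparison in these lists, all against 0w. Ndufa4l2 was higher in all 3, with log2 changes of 4.14, 3.24 and 4.47 in the same order. Eif6 (1.99) and Bop1 (2.26) were higher and Mycn (-5.41) was lower, each in the last of the 3. Ndufa4l2 is counted on the oxidative phosphorylation list, and whether its product is a subunit was not tested. Over all genes DESeq2 called 5.32%, 1.24% and 5.17% in these 3 comparisons. The shares with edgeR at an unadjusted p below 0.05, in either direction, were 11.5%, 6.47% and 12.6%.

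The changes of the members were set against the base composition of their transcripts. GC content ran from 40.58% to 62.41% over the 80 members and length from 383 to 5179 bases, with a Spearman correlation of -0.37 between them. Across the 80 genes, which share their plates and are not independent replicates, the correlation of GC content with the change was -0.39 for 1w pw1 against 0w and 0.54 for 1w pw2 against 1w pw1, which share the plates of 1w pw1. In the other comparisons, which share plates too, it was 0.42 for 8w pw1 and 0.48 for 1w pw2 against 0w, 0.48 for 1w pw2 against 8w pw1 and 0.53 for the difference between the healings. Over 5598 other well expressed genes the correlations were 0.12 and 0.24 in the first pair and 0.23, 0.30, 0.15 and 0.02 in the others. The 28 members with the lowest GC content had a median change of 0.63 for 1w pw1 over 0w and -0.79 for 1w pw2 over 1w pw1, where the 27 members with the highest had 0.26 and 0.16. Rpl5 (42.74% GC), Rps20 (41.26%) and Rpl23 (46.36%) belong to the former and Rps15 (62.41%) to the latter.

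Plates of one group differed as well. The median log2 ratio of replicate 1 to replicate 2 over the members was 0.13 in 0w, 0.52 in 1w pw1, -0.03 in 8w pw1 and 0.90 in 1w pw2, against -0.24 to -0.07 over the other genes. At 1w pw2 this ratio was 0.65 in the members with the lowest GC content and 1.2 in those with the highest. When the trend of each plate with length and GC content, fitted over genes outside the family, was taken out, which was chosen after seeing the data, the median change at 1w pw1 against 0w was -0.07 where that of all genes was -0.13, and that at 1w pw2 against 0w was -0.12. The change of Rpl5 from 0w to 1w pw1 was 1.12 after this step, that of Rps27a 0.73 and that of Rpl23a 0.55. The part of base composition in the comparisons of time points was not tested beyond these values.

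**Figure D4:**
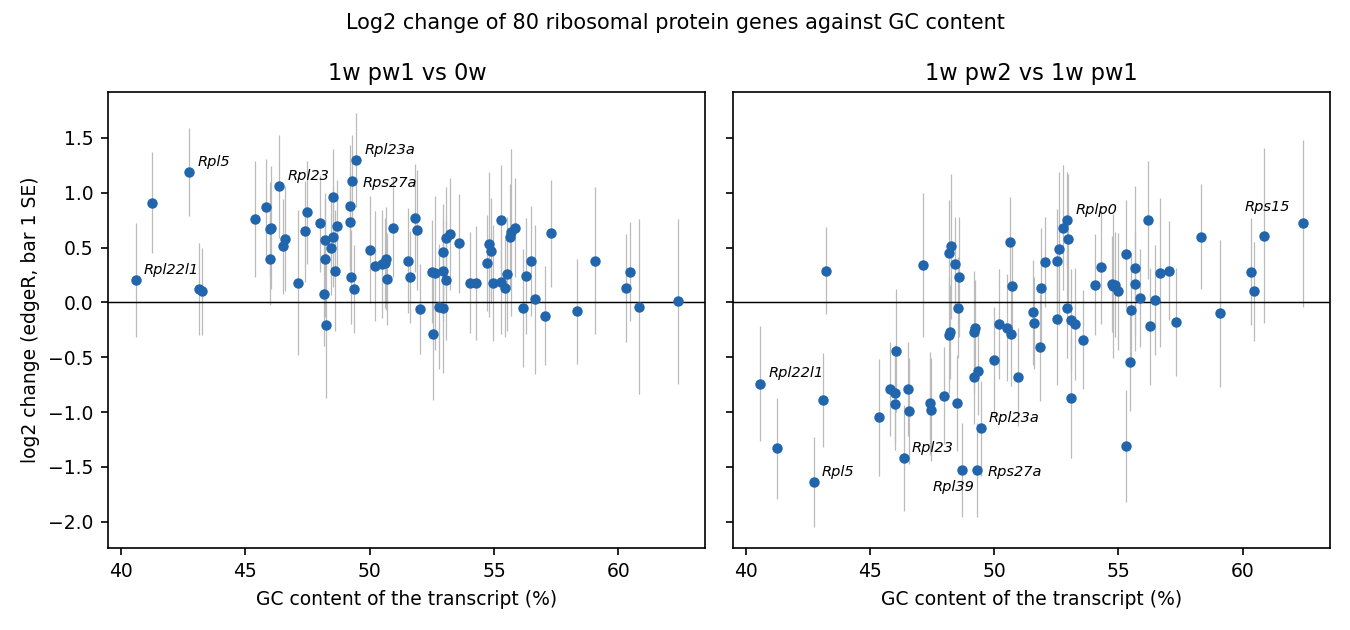
Log2 change of each of the 80 tested ribosomal protein genes (vertical axis, edgeR, bar 1 SE) against the GC content of its transcript (%), for 1w pw1 against 0w and for 1w pw2 against 1w pw1. On the left 27 of the 28 members of lowest and 23 of the 27 of highest GC content lie above 0. On the right those of low GC content lie mostly below 0, and the Spearman correlations are -0.39 and 0.54.

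Cells were clustered without ribosomal protein genes, mitochondrial genes and predicted gene models, and 5 of 13 clusters with 241 cells could be named from markers, each by similarity only. Another 3 clusters had as many leading genes from the markers of one class as from those of another and are called by their first gene. The share of counts in ribosomal protein genes differed between these 8 clusters. The median was lowest at 3.37% in the cluster led by Klk10 (66 cells), with the cornified envelope and granular layer genes Cdsn, Sprr1a, Asprv1 and Crct1 also in the lead, and highest at 11.2% in the cluster led by Mt4 and Krt1 (48 cells). At a lower resolution the highest median was 8.17%, in 141 cells led by Krt2, Wfdc17 and Mt4. The cluster led by Klk10 had raised levels of 7 of 7 markers of the upper follicle duct, among them Krt17, which is also a wound activated marker. At a higher resolution the lowest medians were 2.22% in 21 cells led by Rptn, Klk10 and Crct1 and 3.86% in 44 cells led by Krt77 and the duct marker Cst6. An unnamed cluster (117 cells, median 5.81%) had 3 of the 7 duct markers raised, Krt79, Gata6 and Defb6 among its leading genes. The median was 7.18% in the basal-like cluster (77 cells), 8.10% in the wound activated-like cluster (66 cells), 5.90% in the bulge-like cluster (49 cells), 6.27% in the cycling-like cluster (29 cells), 7.30% in the cluster led by Wfdc17 and Krt2 (23 cells) and 5.0% in the sebaceous gland-like cluster (20 cells). The cluster led by Mt4 had a median depth of 0.649 times that of its plates and the cluster led by Klk10 1.09 times. Mitochondrial counts took a median of 16.9% in the former and 11.9% in the latter, against 26.8% in the basal-like cluster. Without mitochondrial genes the median share was 3.60% in the cluster led by Klk10, still the lowest, and 13.6% in that led by Mt4, still the highest, whereas the basal-like cluster, with 10%, then stood above the wound activated-like one, with 9.08%. These medians pool plates, and the basal-like cluster had 0 cells at 1w pw1 and at 1w pw2. This does not show a lack of basal cells on those plates. The 8 basal markers summed to 3649 and 2266 CPM at 0w and 4685 and 3790 at 1w pw1. They had 5311 and 5422 CPM at 8w pw1 and 4959 and 4261 at 1w pw2. The leading genes of the basal-like cluster, Ntrk2, Ccl27a and Fst first, are not among these markers. On the plates of 8w pw1, with mitochondrial genes counted, basal-like cells had 7.64% and 7.22% and wound activated-like cells 4.11% and 7.63%. The part of depth in these shares was not tested. The clusters are defined by other genes of the same cells, and no test was made between them.

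The low share of the cluster led by Klk10 was seen within single plates. Its cells were below the other cells of their plate on 7 of 7 plates with at least 5 of them. At 0w the medians were 2.50% against 7.24% on replicate 1, at 1w pw1 4.42% against 9.80% and 3.23% against 6.94%. At 8w pw1 they were 3.42% against 6.53% and 3.61% against 6.30%, and at 1w pw2 3.63% against 8.52% and 1.79% against 5.48%. Basal-like cells were above the other cells on 4 of 4 plates, with 10.2% against 6.33% and 5.83% against 5.63% at 0w and 7.64% against 6.02% and 7.22% against 5.51% at 8w pw1. At the higher resolution the leading genes of the basal-like cluster were divided. An unnamed cluster of 45 cells led by Ntrk2 had a median of 6.12%, and 33 basal-like cells led by Rpap2 and Ccl27a had 10.4%. Another basal-like cluster there, of 31 cells led by Tbcel and Mmp3, had 8.46%. The cluster led by Mt4 was above on 4 of 4 plates, from 7.21% against 4.97% on 1w pw2 replicate 2 to 19.2% against 7.98% on 1w pw1 replicate 1. Wound activated-like cells were above on 5 of 6 plates and bulge-like cells below on 3 of 4.

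**Figure D5:**
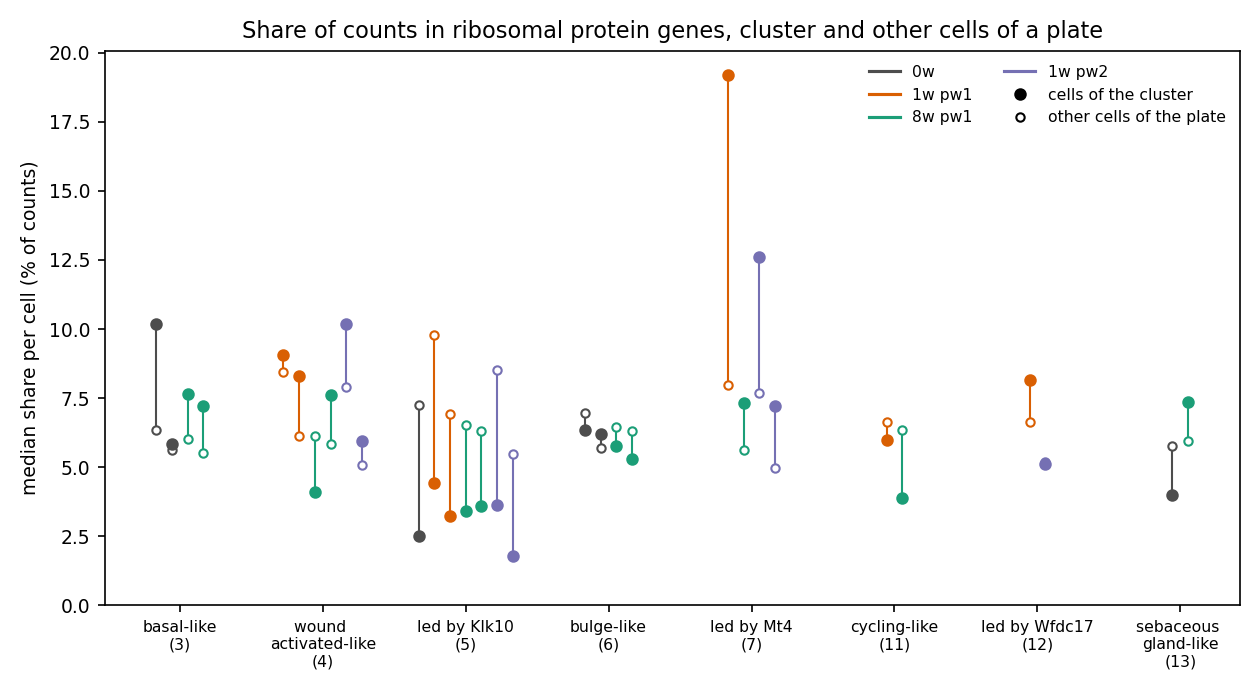
Median percent of counts in ribosomal protein genes (vertical axis, from 0) for the cells of a cluster (filled circle) and the other cells of the same plate (open circle), joined by a line per plate and coloured by time point, for plates with at least 5 cells of the cluster (cluster number in parentheses). The cells of the cluster led by Klk10 lie below the other cells on all 7 plates, and the basal-like cells and those of the cluster led by Mt4 above them on all 4.

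The mix of clusters on a plate was set beside its share. If every cell had the mean share of its cluster, taken over all plates in this clustering, the plates would run from 7.21% to 7.86%, whereas the observed means of cells ran from 5.67% to 10.1%. At 1w pw1 the means were 10.1% and 7.67% where the mix of clusters gave 7.86% and 7.33%, and at 1w pw2 they were 9.27% and 5.67% where it gave 7.86% and 7.81%. The cluster means come from the same plates that are compared, and the basal-like cluster had 0 cells at 1w pw1 and at 1w pw2. Cluster and time point are therefore mixed in these values, which draws no line between them. The part of the kinds of cells within a cluster was not tested.

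The share of a member was compared with that of the others from cell to cell. The Spearman correlation of a member with the sum of the others over the 696 cells, which share depth and plate, had a median of 0.69 and a maximum of 0.91, and was above 0.5 for 72 members. It was lowest for Rpl39l at 0.04, Rpl7l1 at 0.14, Rpl22l1 at 0.19, Rpl39 at 0.28 and Rps27l at 0.31. Rpl39l and Rpl7l1 had counts in 0.575% and 54.7% of cells, and a correlation over so many zeros is bounded.

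The make-up of the family by cluster is shown for 3 genes, of which Rpl22l1 and Rps27l were singled out after their values were seen. Rpl22l1 made up 1.10% of the ribosomal protein counts in bulge-like cells, 0.301% in the cluster led by Mt4 and 0.636% over all cells. On single plates bulge-like cells had 1.35% against 0.641% in the other cells and 1.30% against 0.932% at 0w, and 0.799% against 0.705% and 0.61% against 0.426% at 8w pw1, so that they were above on 4 of 4 plates. Rps27l made up 0.803% in the cluster led by Klk10 and 0.427% over all cells. On single plates the cells of this cluster had 1.30% against 0.435% at 0w, 1.36% against 0.369% and 0.904% against 0.419% at 1w pw1, 0.413% against 0.434% and 0.525% against 0.297% at 8w pw1, and 0.716% against 0.288% and 0.239% against 0.305% at 1w pw2, which is above on 5 of 7 plates. Rplp0 made up 4.12% in the cluster led by Wfdc17, 3.70% in that led by Mt4, 1.74% in bulge-like cells and 2.51% over all cells. In the cluster led by Wfdc17 its part was 1.58% against 1.54% in the other cells on 1w pw1 replicate 2. On 1w pw2 replicate 2 it was 7.33% against 5.02%. On single plates the cluster led by Mt4 had 3.35% against 1.52% on 1w pw1 replicate 1, 3.41% against 2.28% on 8w pw1 replicate 2, and 3.25% against 3.18% and 6.21% against 5.09% at 1w pw2. Bulge-like cells had 1.67% against 2.29% and 1.39% against 1.60% at 0w, and 1.95% against 2.26% and 2.12% against 2.38% at 8w pw1. On 1w pw2 replicate 2 it made up from 4.77% in the cluster led by Klk10 to 7.33% in that led by Wfdc17, whereas none of the 8 clusters with at least 5 cells on any other plate was above 3.71%.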

How the data were processed

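Per the labels and the study's methods, the authors quantified Smart-seq2 reads of 696 sorted cells, which carry no molecular identifiers, with Salmon 0.13.1 (GRCm38) and deposited estimated counts per gene and cell, which need not be whole numbers. Here the counts of the cells of a plate were added and rounded, which gave 8 plates, 2 per time point, and filtered with filterByExpr. edgeR 4.0.16 (R 4.3.3) fitted all 8 plates by time point with TMM scaling and the quasi-likelihood test, and p-values were adjusted by Benjamini-Hochberg over 13853 genes (threshold 0.05, no minimum fold). DESeq2 1.42.0 was an alternative, and others were another scaling, no filter, stricter cells, each plate left out and a replicate block. The scripts were tested on simulated data. Levels are CPM scaled by TMM, also per kb of exon (GENCODE M21, all 81 members matched). Cells were clustered with leidenalg 0.10.2 (2000 variable genes, 15 components, resolution 1), and no doublet caller was run on these sorted wells. Named were the 3 highest and 3 lowest members per comparison among those with a mean log2 CPM of at least 4, the 5 highest and 5 lowest per kb, and fixed members and paralogues. The members and lists were chosen with earlier results of these data known.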

Additional observations from a re-analysis of the deposited data

How the results depend on the processing

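No member was called by edgeR or DESeq2 at an adjusted p below 0.05 in any of the 18 alternative settings, and the lowest value was 0.0559 for Rpl5 at 1w pw1 against 0w with the length and GC trend removed and a replicate block (log2 change 1.10). The sign of the median change relative to all genes, counted on 2 decimals, was kept in 17 of 18 settings for 1w pw1 against 0w (where the gap shrank from 0.42 to 0.06 with the length and GC trend removed and to 0.00 with a replicate block as well), 16 of 18 for 8w pw1 against 0w, 14 of 18 for 1w pw2 against 0w, 17 of 18 for 1w pw2 against 8w pw1, 16 of 18 for 1w pw2 against 1w pw1 and 11 of 17 for the difference between the healings. The sign of the median itself was kept in 14, 17, 14, 17, 14 and 7 of these settings in the same order. It was 0.12 at 8w pw1 against 0w with cells scaled equally, 0.22 and 0.12 for 1w pw2 over 1w pw1 with library totals with and without mitochondrial genes, and for the difference 0.32 with the latter, 0.15 with the trend removed, 0.13 with trend and block, 0.05 with stricter cells and 0.01 without a filter on low counts. The median moved by more than the spread of plates, 0.39 on the log2 scale, at 1w pw1 against 0w to -0.05 with library totals without mitochondrial genes, -0.07 with the trend removed and -0.11 with trend and replicate block. At 1w pw2 against 0w it moved to -0.18 with stricter cells, -0.12 with the trend removed and -0.19 with trend and replicate block, and the difference moved to 0.36 with library totals. Leaving out 1 plate gave medians from 0.10 to 0.61 at 1w pw1 against 0w, -0.21 to -0.08 at 8w pw1 against 0w, -0.36 to 0.57 at 1w pw2 against 0w, -0.20 to 0.72 for 1w pw2 over 8w pw1, -0.77 to 0.29 for 1w pw2 over 1w pw1 and -0.61 to 0.40 for the difference. The cause was not tested.

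Shares without mitochondrial genes were 9.16%, 10.8%, 7.63% and 8.50%, and with stricter cells 9.82% for 0w, 10.1% for 1w pw1, then 6.92% for 8w pw1 and finally 7.96% for 1w pw2, which puts 1w pw2 below 0w, where 9 cells were left on replicate 2. The share at 1w pw2 was 5.36% to 8.49% from single plates. Of the pathway genes outside the family, DESeq2 called 4 in 6 pairs of gene and comparison and the replicate block 1. The median level was 684 CPM per kb of transcript, and the lowest share of a cluster was 2.22% at a higher resolution. Reversals of single members came mostly from leaving out 1 plate. In the first healing against 0w this gave -1.11 to 0.22 for Rps21, -1.03 to 0.31 for Rpl37 and -0.40 to 0.10 (0.05 without 0w replicate 1) for Rpl13. Rpl41 ranged from -0.07 to 0.78 at 8w pw1 (-0.01 without 0w replicate 2) and from -0.49 to 1.67 at 1w pw2, where it was -0.01 with trend and replicate block. Against 8w pw1, Rpl7l1 ranged from -1.01 to 0.43 at 1w pw2 and was 0.65 with cells scaled equally. Between the healings at 1 week, Rps14 ranged from -0.15 to 1.32 and Rps15 from -0.69 to 1.64, and in the difference Rps14 ranged from -0.21 to 1.26 and Rpl36 from -0.99 to 1.86 (-0.07 without 1w pw1 replicate 2).

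Replicate numbers 1 and 2 are shared by the groups, but no label pairs them. Same-numbered plates deviated together with a correlation of 0.17 to 0.26 over all genes and 0.48 to 0.87 over the members. Within either number the share of counts in the members was higher at 1w pw1 than at 0w and at 1w pw2. With a replicate block edgeR called 0 members, with 8 at an unadjusted p below 0.05 in the first healing over 0w (10% of members, 14.5% of all genes) and 18 between the healings at 1 week (22.5% and 8.43%, with 0 genes of all called), and called 236 genes of all at 1w pw1 and 96 at 1w pw2, both over 0w, where the fit without it called 73 and 37. With 2 plates a group, a typical standard error of 0.48 limits what single members can show.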
